A study of Mus musculus with 3 samples.

Results

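The 9 genes described here are *Fos*, *Fosb*, *Jun*, *Junb*, *Jund*, *Egr1*, *Ier2*, *Atf3* and *Nr4a1*, taken by symbol from the 32285 genes measured in single cells of the mouse ascending aorta. Each symbol matched a gene in all 3 libraries. Immediate early genes are switched on within minutes of a stimulus without new protein synthesis, and most of their mRNAs decay quickly. In the vessel wall, growth factors, stretch and angiotensin II are among their known inducers. Warm enzymatic dissociation of a tissue is a known inducer as well, and all 3 suspensions were made by digestion with elastase and collagenase, so its part in the levels below was not tested.

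The scRNA-seq libraries came from male C57BL/6J mice at P45. Pooled ascending aortas of 3 WT littermates gave the WT library, those of 3 *Fbn1* mgR/mgR mice the mgR library, and those of 4 *Fbn1* mgR/mgR mice that drank 0.6 g/L losartan from P16 the mgR-LOS library. The mgR allele is hypomorphic, that is, it lowers fibrillin-1 production, and both mutant groups carried it in all cells. Losartan blocks the angiotensin II type 1 receptor. Whether the mgR library is from untreated or vehicle-treated mice is not given by the labels. With 1 library per group, no test between groups was possible, and the libraries cannot be told apart from the genotype or treatment. All intervals are at 95%. Those of levels and ratios cover counting error only, and those of shares take barcodes as independent draws. None covers the spread between animals.

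Filters of 600 to 5000 detected genes and a mitochondrial share of no more than 10% of unique molecular identifiers (UMIs) left 5361 WT, 8076 mgR and 12721 mgR-LOS barcodes. Their median UMI counts were 13636, 12410.5 and 8334. Pairs of libraries shared 11 to 34 kept barcode sequences. *Fbn1*, the targeted gene, was at 361 UMIs per 1000000 (CPM) in WT, 150 in mgR and 117 in mgR-LOS. Cell classes were gated on the UMIs of marker panels, none of which held a member. The smooth muscle cell (SMC) class held 3655 WT, 3032 mgR and 7908 mgR-LOS barcodes, the fibroblast class 1313, 2491 and 3089, the macrophage class 86, 905 and 534, and the endothelial cell (EC) class 110, 220 and 173. *Acta2*, an SMC actin, was at 19867 to 21763 CPM in the SMC class against 549 to 814 CPM in the fibroblast class, and *Dcn*, a fibroblast proteoglycan gene, at 8713 to 13436 CPM in fibroblasts against 71.8 to 123 CPM in SMCs. *C1qa*, a complement gene of macrophages, reached 5177 to 6173 CPM in its class, and *Pecam1*, an EC adhesion gene, 1343 to 1642 CPM. These genes belong to the gating panels, so their high levels in the matching class follow from the gates.

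The members differ in what they encode and lie on 7 chromosomes. Coordinates are those of GENCODE release M21 on GRCm38. *Fos* (ENSMUSG00000021250, chr12:85473890-85477273, plus strand) and *Fosb* (ENSMUSG00000003545, chr7:19302696-19310051, minus strand) encode Fos proteins, which bind DNA as dimers with Jun proteins. *Jun* (ENSMUSG00000052684, chr4:95049034-95052222, minus strand), *Junb* (ENSMUSG00000052837, chr8:84974484-84978718, minus strand) and *Jund* (ENSMUSG00000071076, chr8:70698949-70700616, plus strand) encode the Jun partners, and such dimers form the factor AP-1. *Atf3* (ENSMUSG00000026628, chr1:191170296-191218039, minus strand) encodes a stress-induced basic leucine zipper protein of the ATF family. *Egr1* (ENSMUSG00000038418) encodes a zinc finger factor, *Nr4a1* (ENSMUSG00000023034, chr15:101254269-101274795, plus strand) an orphan nuclear receptor, and *Ier2* (ENSMUSG00000053560, chr8:84661331-84662852, minus strand) a short nuclear protein.

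Because members ran together from barcode to barcode in SMCs and fibroblasts, as described below, the 250 bases before the RefSeq start sites (build GRCm38.p6) were read. A window was found for 7 members, and none for *Egr1* and *Ier2*. The core of the cAMP response element (CRE), TGACG on either strand, was present in 5 of these 7 windows (*Fos*, *Fosb*, *Junb*, *Atf3* and *Nr4a1*) and in 17.8% of all 32851 windows of the same length. The full CRE, TGACGTCA, which contains the core, the AP-1 site TGAGTCA and the CArG box bound by serum response factor were in none of the 7 windows and in 1.55%, 4.46% and 1.47% of all windows. The GC box, GGGCGG, was in *Fos*, *Fosb*, *Jun*, *Atf3* and *Nr4a1* and in 32.7% of all windows, and TATAAA in *Fos* only among the 7 and in 12.4% of all. A match is a run of letters and not a shown binding site. The 5 windows with the core were 58.4 to 74.4% G or C, and those of *Jun* and *Jund* 61.2% and 47.6%. All windows served as background whatever their base composition, and its part in these shares was not tested. An absence holds for these 250 bases only, and sites further from the start were not read. The *Jund* window, chr8:70697489-70697738, does not adjoin the GENCODE start of that gene at 70698949. Those of *Nr4a1* and *Atf3* do not adjoin the GENCODE starts either, at 101254269 and 191218039, and lie inside the genes. The windows of *Fos*, *Junb*, *Nr4a1* and *Jun*, which overlap no annotated exon, are printed from 5′ to 3′ on the strand of the gene, to show how the number of cores differs between members. Capitals mark TGACG or its complement CGTCA. They are chr12:85473640-85473889 (plus), chr8:84978749-84978998 (minus), chr15:101266596-101266845 (plus) and chr4:95052223-95052472 (minus), in that order.
Fos: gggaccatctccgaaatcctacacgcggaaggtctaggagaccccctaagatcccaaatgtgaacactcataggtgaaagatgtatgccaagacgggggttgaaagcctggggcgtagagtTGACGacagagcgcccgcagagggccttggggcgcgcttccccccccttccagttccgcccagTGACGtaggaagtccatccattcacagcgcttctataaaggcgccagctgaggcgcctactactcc
Junb: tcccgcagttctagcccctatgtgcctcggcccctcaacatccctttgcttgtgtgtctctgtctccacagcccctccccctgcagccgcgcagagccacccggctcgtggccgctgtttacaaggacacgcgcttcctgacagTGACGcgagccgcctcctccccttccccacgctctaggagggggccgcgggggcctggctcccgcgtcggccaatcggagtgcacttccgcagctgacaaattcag
Nr4a1: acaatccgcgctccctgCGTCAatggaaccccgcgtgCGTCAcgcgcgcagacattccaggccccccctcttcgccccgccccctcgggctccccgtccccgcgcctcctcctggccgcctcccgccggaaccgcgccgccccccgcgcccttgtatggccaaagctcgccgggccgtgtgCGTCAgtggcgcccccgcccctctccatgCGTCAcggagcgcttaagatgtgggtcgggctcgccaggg
Jun: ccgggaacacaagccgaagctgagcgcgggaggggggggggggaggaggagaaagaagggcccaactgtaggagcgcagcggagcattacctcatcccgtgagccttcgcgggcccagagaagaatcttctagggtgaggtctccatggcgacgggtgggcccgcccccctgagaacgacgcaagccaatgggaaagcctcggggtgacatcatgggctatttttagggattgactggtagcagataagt
*Nr4a1* held 4 cores, *Fos* 2, *Junb* 1 and *Jun* none. In *Fos* the core nearest to the start lay 62 to 66 bases before it. Across fibroblast barcodes *Fos* correlated at 0.65 to 0.66 with *Jun* and at 0.41 to 0.47 with *Nr4a1*. Across SMC barcodes the values were 0.59 to 0.67 and 0.57 to 0.66. The part of the cores in how members ran together was not tested.

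The 9 genes together made up 1.24%, 1.15% and 1.24% of all UMIs of the kept WT, mgR and mgR-LOS barcodes. The SMC class held 12725 CPM in WT, 11292 in mgR and 12070 in mgR-LOS. The fibroblast class held 12172, 12923 and 14099 CPM, and the macrophage class 10413, 12225 and 10571 CPM. The highest library was 1.13-fold above the lowest in SMCs, 1.16-fold in fibroblasts and 1.17-fold in macrophages. The EC class was lower, at 4121, 5651 and 5386 CPM, and T or NK cells were at 3672, 4422 and 3322 CPM from 21, 117 and 65 barcodes.

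With the EC class split into its subclasses, 9 classes had at least 10 barcodes in every library and could be ordered by the geometric mean over libraries. Schwann cells stood at the top with 15169, 11248 and 19132 CPM (12, 22 and 31 barcodes). Their median UMI counts were 3336, 3772 and 2559. When classes were taken from clusters instead, no cluster was named Schwann cell in WT or mgR. In mgR-LOS 29 of the 31 barcodes lay in such a cluster. Fibroblasts, capillary ECs, SMCs and macrophages followed, and each neighbor in this order had a range over libraries that overlapped the next. A gap without overlap lay between macrophages, whose lowest library was at 10413 CPM, and lymphatic ECs, whose highest was at 7827 CPM. Lymphatic ECs, T or NK cells, mesothelial cells and the remaining ECs made up the low end and overlapped their neighbors. Mesothelial cells had the widest spread, with 3469 CPM in WT, 10500 in mgR and 1350 in mgR-LOS, from only 12, 29 and 15 barcodes. B cells (142 barcodes in mgR) held 3858 CPM, and neutrophils (45 in mgR) 8571 CPM.

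**Figure D1:**
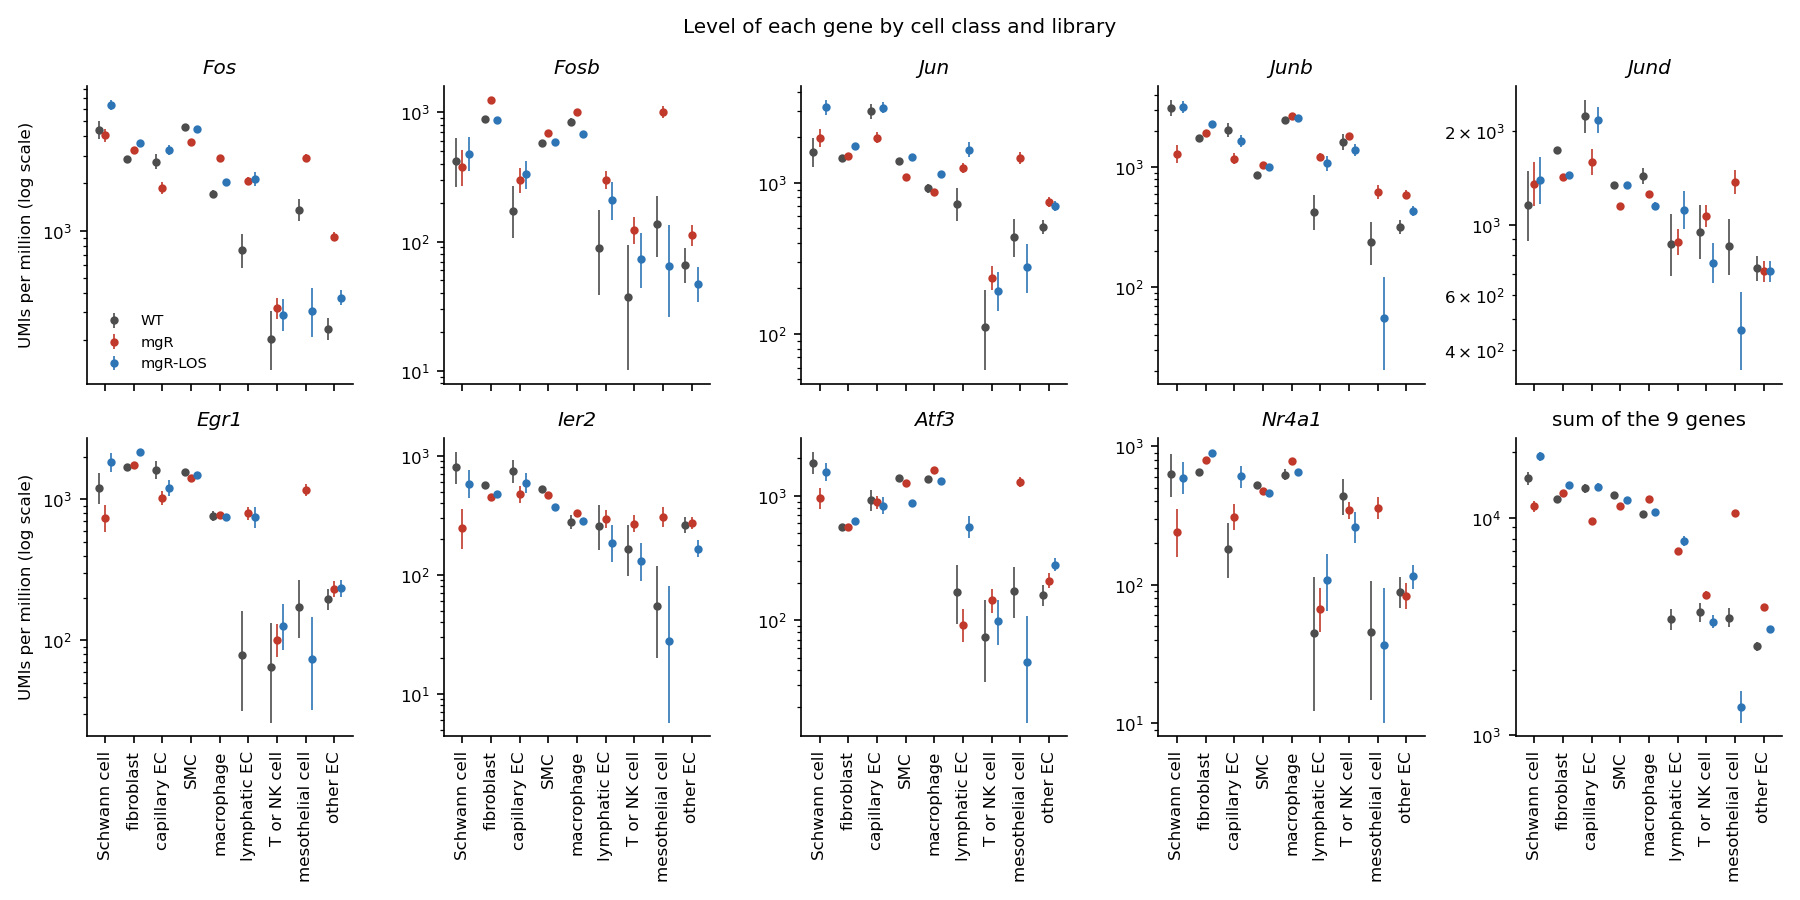
CPM of each gene and of their sum (log scale) in 9 cell classes ordered by the sum, with a point for each library and bars for 95% Poisson intervals. The sum separates 5 classes at 9623 CPM or more in every library from 4 classes at 7827 CPM or less in nearly all, with mesothelial cells at 10500 CPM in mgR as the exception.

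Each UMI stands for a captured 3′ end, so levels of different genes were compared without a correction for length. *Fos* was the leading member in SMCs, with 4567 CPM in WT, 3696 in mgR and 4457 in mgR-LOS, and made up 32.7 to 36.9% of the 9-gene UMIs there. *Fos* in fibroblasts was lower, at 2877, 3269 and 3608 CPM, and the ranges of the 2 classes did not overlap. *Fos* in T or NK cells was at 203, 318 and 291 CPM, 5.54 to 8.74% of the sum. Over the 9 classes the geometric mean of *Fos* spanned 18.2-fold.

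*Fosb* was highest in fibroblasts, at 888, 1239 and 866 CPM, and overlapped there with macrophages at 841, 998 and 677 CPM. Its level in SMCs was 576, 693 and 590 CPM. In the capillary EC class *Fosb* was at 173, 297 and 331 CPM although *Fos* reached 2755, 1869 and 3278 CPM in the same barcodes. The genes of the Fos pair were therefore in different proportions in capillary ECs and fibroblasts. In the remaining ECs *Fosb* was at 66.2, 112 and 47.3 CPM beside 236, 912 and 373 CPM of *Fos*. SMCs also held little *Fosb* beside *Fos*, at 4.52, 6.13 and 4.89% against 35.9, 32.7 and 36.9% of the 9-gene UMIs.

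By the geometric mean over libraries *Jun* was highest in capillary ECs, at 2963, 1992 and 3143 CPM, although Schwann cells held 3175 CPM in mgR-LOS. Its level was 1385, 1091 and 1478 CPM in SMCs and 111, 236 and 192 CPM in T or NK cells. By the same measure *Junb* was highest in macrophages, where it held 2470, 2663 and 2575 CPM and was the largest member in WT and mgR-LOS. Schwann cells overlapped this range, with 3125, 1286 and 3175 CPM of *Junb*, and mgR neutrophils held 3106 CPM. *Junb* also made up 41.1 to 44.3% of the 9-gene UMIs of T or NK cells, at 1628, 1818 and 1391 CPM, and 36.2% of those of mgR neutrophils. *Junb* in SMCs was lower than in macrophages in every library, at 858, 1043 and 1009 CPM. *Jund* was the most even member, and its geometric mean spanned 2.76-fold over the 9 classes, from 716 CPM in the remaining ECs to 1973 CPM in capillary ECs.

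*Egr1*, at chr18:34859823-34864984 on the plus strand, spanned 19.8-fold, the widest among the 9. Its level in fibroblasts was 1691, 1760 and 2156 CPM, in SMCs 1557, 1409 and 1485 CPM and in T or NK cells 64.7, 101 and 127 CPM. *Atf3* was at 1368, 1625 and 1311 CPM in macrophages and 1390, 1268 and 874 CPM in SMCs. *Atf3* in fibroblasts was at 567, 567 and 624 CPM and did not overlap with SMCs or macrophages. *Nr4a1* was at 656, 795 and 899 CPM in fibroblasts and 623, 785 and 657 CPM in macrophages. T or NK cells held 435, 345 and 262 CPM of *Nr4a1*, above the 88.8, 83.2 and 115 CPM of the remaining ECs in every library. *Ier2* reached 800.4 CPM at most in the 9 classes, in WT Schwann cells, with 745, 475 and 595 CPM in capillary ECs and 528, 469 and 375 CPM in SMCs.

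**Figure D2:**
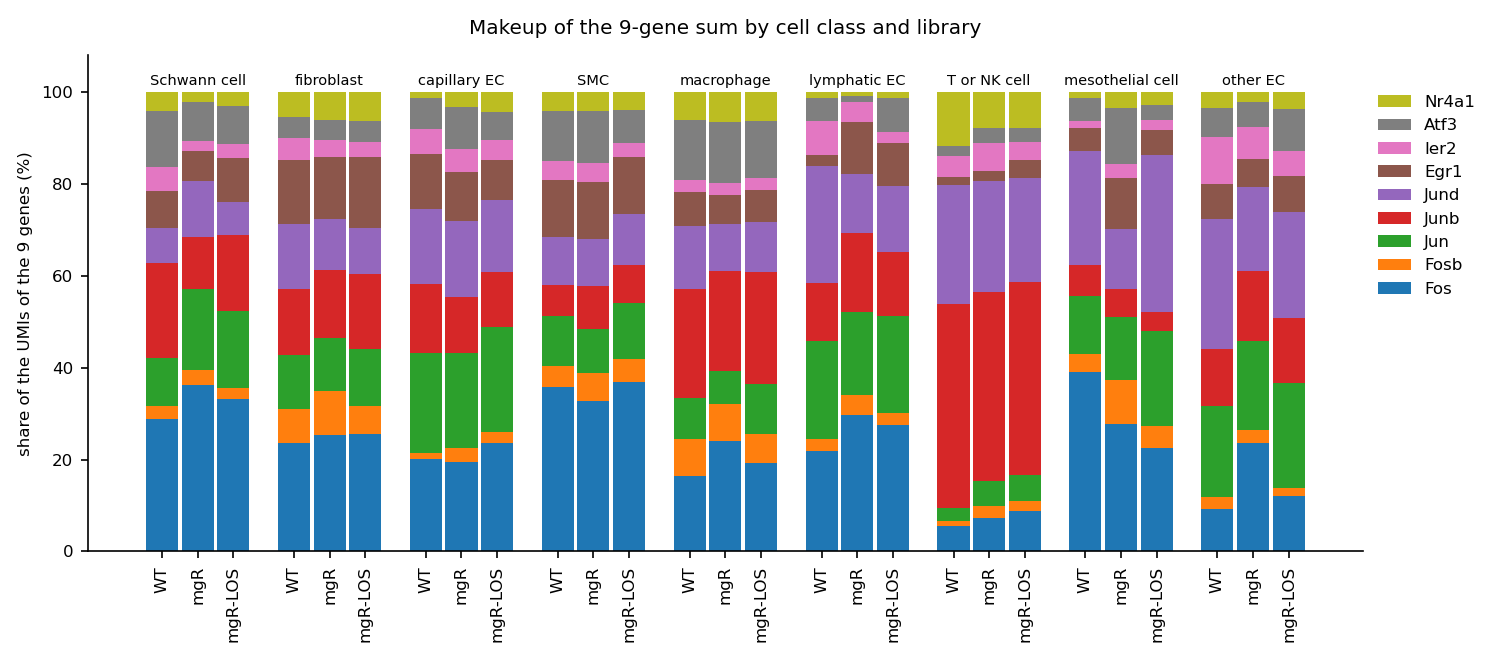
Share of the UMIs of the 9 genes (%) that each gene took, with a stacked bar for each library of 9 cell classes. *Fos* took 32.7 to 36.9% in SMCs, and *Junb* 41.1 to 44.3% in T or NK cells.

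ECs of the ascending aorta fell into subclasses with unlike levels of the members. Gates on capillary genes (*Cd36*, *Fabp4*, *Lpl*, *Gpihbp1*, *Rgcc* and *Flt1*) took 17 WT, 36 mgR and 29 mgR-LOS barcodes, and gates on lymphatic genes 12, 55 and 21. The remaining ECs numbered 81, 129 and 123. *Cd36*, a fatty acid transporter gene that is part of the capillary gate, was at 2125 to 2503 CPM in capillary ECs. In the remaining ECs it was at 41.1 to 66.4 CPM. *Cytl1*, taken here as a marker of the aortic lumen, was at 1890 to 2926 CPM in the remaining ECs and at 0, 255 and 56.9 CPM in capillary ECs.

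The 9 genes summed to 13635, 9623 and 13819 CPM in capillary ECs, and to 2565, 3870 and 3063 CPM in the remaining ECs. Capillary ECs were thus 5.32-fold higher in WT (4.96 to 5.70), 2.49-fold in mgR (2.37 to 2.61) and 4.51-fold in mgR-LOS (4.27 to 4.76). All 9 members were higher in capillary ECs than in the remaining ECs in all 3 libraries, from 1.73-fold for *Ier2* in mgR to 11.7-fold for *Fos* in WT. *Fos* was at 2755 against 236 CPM in WT, 1869 against 912 CPM in mgR and 3278 against 373 CPM in mgR-LOS. *Egr1* was 8.33-fold higher in WT, 4.43-fold in mgR and 5.14-fold in mgR-LOS. Capillary ECs were not uniform. The median barcode had 12408, 7731 and 3374 CPM, and 29.4, 27.8 and 37.9% of barcodes lay under 2000 CPM, against 54.3, 34.9 and 54.5% of the remaining ECs.

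Depth was close in both subclasses, with median UMI counts of 6124, 6630 and 6244 in capillary ECs and 6889, 7394 and 5482 in the remaining ECs. SMC marker genes summed to 1299, 2044 and 1964 CPM in capillary ECs and 1160, 1572 and 1857 CPM in the remaining ECs. *Dcn* was at 1768, 759 and 2215 CPM in the remaining ECs and at 26.0, 48.9 and 253 CPM in capillary ECs. *Col1a2*, a collagen gene that was also high in fibroblasts, differed less in mgR and mgR-LOS. Its levels there were 129.4 and 183.6 CPM in the remaining ECs and 122.3 and 175.8 CPM in capillary ECs. In WT *Col1a2* was higher in the remaining ECs. *Lum*, a further fibroblast panel gene, was at 102, 83.2 and 140 CPM there against 8.66, 14.0 and 20.7 CPM in capillary ECs. Every gene of the fibroblast panel was higher in the remaining ECs in each library, several of them at low CPM. The part of fibroblast RNA in either subclass was not tested. Heat shock genes, induced by protein damage and heat, summed to 18685, 12816 and 13943 CPM in capillary ECs against 7464, 7230 and 7004 CPM in the remaining ECs. Their part in the difference was not tested.

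**Figure D3:**
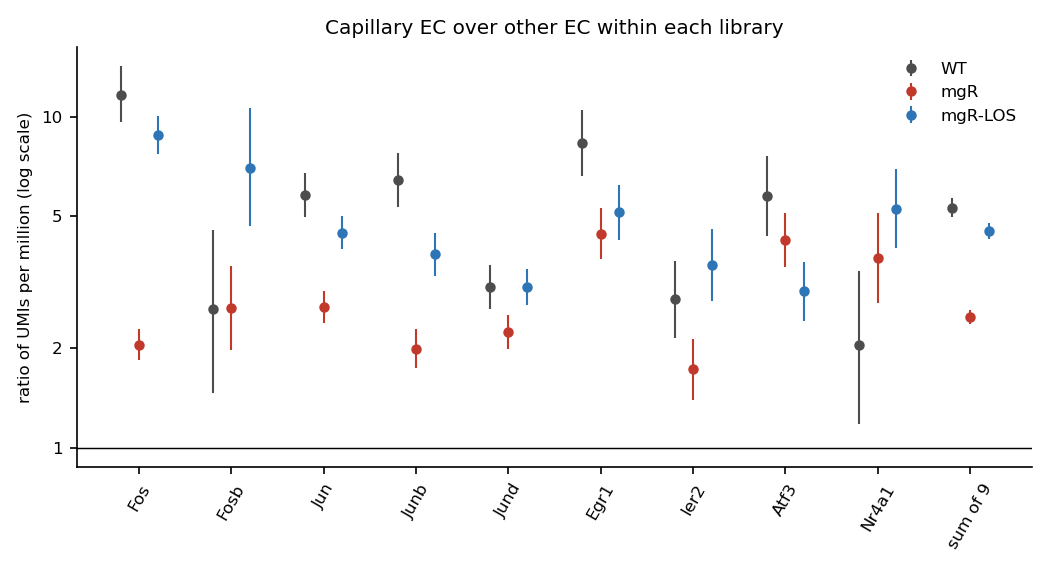
Ratio of CPM in capillary ECs over the remaining ECs (log scale) for each gene and the sum, with a point for each library and bars for exact 95% intervals of the ratio. All points lie above 1, and the sum lies at 5.32 in WT, 2.49 in mgR and 4.51 in mgR-LOS.

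The comparison of the mgR with the WT library asked what differed with the *Fbn1* mutation. In SMCs and fibroblasts no member was 1.5-fold higher or lower. The sum was 0.887 times the WT level in SMCs (0.884 to 0.891), 1.06 times in fibroblasts (1.06 to 1.07), 1.17 times in macrophages (1.15 to 1.20) and 1.37 times in ECs (1.32 to 1.42). Among all genes with at least 20 CPM in either library, 4.96% were at least 1.5-fold higher and 3.61% at least 1.5-fold lower in SMCs, and 6.92% higher and 3.57% lower in fibroblasts. The median log2 ratio was -0.14 over the 9 members and -0.01 over all tested genes in SMCs, and 0.06 and 0.01 in fibroblasts. *Junb* (1.22 times, 1.20 to 1.23) and *Fosb* (1.20 times, 1.18 to 1.22, but 0.968 times with at most 5% mitochondrial UMIs) were the members above WT in mgR SMCs. *Jun* was lowest at 0.787 times (0.779 to 0.796), and at 0.652 times it was past 1.5-fold in 1 of 6 alternative settings. In fibroblasts *Fosb* was at 1.40 times (1.37 to 1.42) and *Ier2* at 0.795 times the WT level.

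In macrophages *Fos* was at 1718 CPM in WT and 2929 CPM in mgR, 1.71 times as high (1.62 to 1.80). It was the only member past 1.5-fold there, 1 of 9, where 9.88% of all tested genes were higher and 4.33% lower. In ECs 3 of 9 members were at least 1.5-fold higher, against 11.8% of all tested genes, and none was lower, against 6.82%. *Fos* was at 623 CPM in WT and 1385 CPM in mgR ECs, 2.22 times as high (2.02 to 2.44), *Fosb* at 82.8 and 193 CPM, 2.34 times (1.81 to 3.05), and *Junb* at 558 and 855 CPM, 1.53 times (1.38 to 1.70). *Junb* was under 1.5-fold with classes from clusters and, at 1.35 times, with each barcode weighted equally. The WT macrophage and EC classes held only 86 and 110 barcodes, and the interval does not cover the spread between cells.

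The difference in ECs was not the same in its subclasses, whose mix also differed, with lymphatic ECs at 10.9% of WT, 25% of mgR and 12.1% of mgR-LOS ECs. The part of the mix in the EC ratios was not tested. In the remaining ECs the sum was 1.51 times the WT level in mgR (1.42 to 1.60) and *Fos* 3.86 times (3.25 to 4.60). In capillary ECs the sum was 0.706 times the WT level (0.663 to 0.751) and *Fos* 0.679 times (0.590 to 0.782). In lymphatic ECs the sum was 2.05 times (1.82 to 2.31) and *Fos* 2.78 times (2.17 to 3.61) the WT level, where the WT library had 12 barcodes. Thinned to 1000 UMIs, 17.3% of the remaining ECs had a *Fos* UMI in WT (9.78 to 27.3) and 40.9% in mgR (32.3 to 50.02), and without thinning 55.6% and 79.1%. Capillary ECs gave 64.7% and 61.1%, with intervals of 38.3 to 85.8 and 43.5 to 76.9. The shares of T or NK cells were 23.8% in WT and 27.4% in mgR. Thinned to 2000 UMIs, the remaining ECs gave 37.3% in WT (26.4 to 49.3) and 50% in mgR (40.4 to 59.6). These intervals overlapped.

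The comparison of mgR-LOS with mgR asked what differed with losartan at the same genotype. Since both comparisons use the mgR library, a level that was high there by chance would appear in both with opposite sign. No member was 1.5-fold higher or lower in SMCs, fibroblasts or macrophages. Among all tested genes 3.71% were higher and 3.59% lower in SMCs, 2.91% and 3.45% in fibroblasts and 4.11% and 2.54% in macrophages. The sum in mgR-LOS was 1.07 times the mgR level in SMCs (1.07 to 1.07), 1.09 times in fibroblasts (1.09 to 1.10), 0.865 times in macrophages (0.855 to 0.875) and 0.953 times in ECs (0.924 to 0.983, but 1.01 times with classes from clusters). The median log2 ratio of the 9 members was -0.04 in SMCs, 0.14 in fibroblasts and -0.24 in macrophages, against 0.01, 0.00 and 0.01 over all tested genes.

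Single members lay on both sides of 1 within a class. In SMCs *Atf3* was at 874 CPM in mgR-LOS against 1268 CPM in mgR, 0.689 times (0.681 to 0.697), and *Jun* at 1478 against 1091 CPM, 1.36 times (1.34 to 1.37). In fibroblasts *Fosb* was at 866 against 1239 CPM, 0.699 times (0.687 to 0.710), and *Egr1* at 2156 against 1760 CPM, 1.23 times (1.21 to 1.24). In macrophages *Fos* was at 0.694 times the mgR level (0.676 to 0.712) and *Jun* at 1.31 times (1.26 to 1.36). *Jun* was higher in mgR-LOS in all 4 classes, although in ECs it was at 0.860 times with each barcode weighted equally, and *Fosb* was lower in all 4. The EC subclasses were not alike in this. *Jun* was at 0.943 times in remaining, 1.58 in capillary and 1.32 in lymphatic ECs, and *Fosb* at 0.421, 1.11 and 0.698 times. In ECs *Fosb* was at 0.588 times (0.480 to 0.717) and *Nr4a1*, at 189 against 116 CPM, at 1.64 times (1.35 to 1.98). These were 1 of 9 members lower and 1 of 9 higher, against 8.35% and 7.75% of all tested genes in ECs. With classes from clusters *Fosb* in ECs was at 0.787 times, and *Nr4a1* was under 1.5-fold in 2 of 6 alternatives, at 1.48 times at the least.

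**Figure D4:**
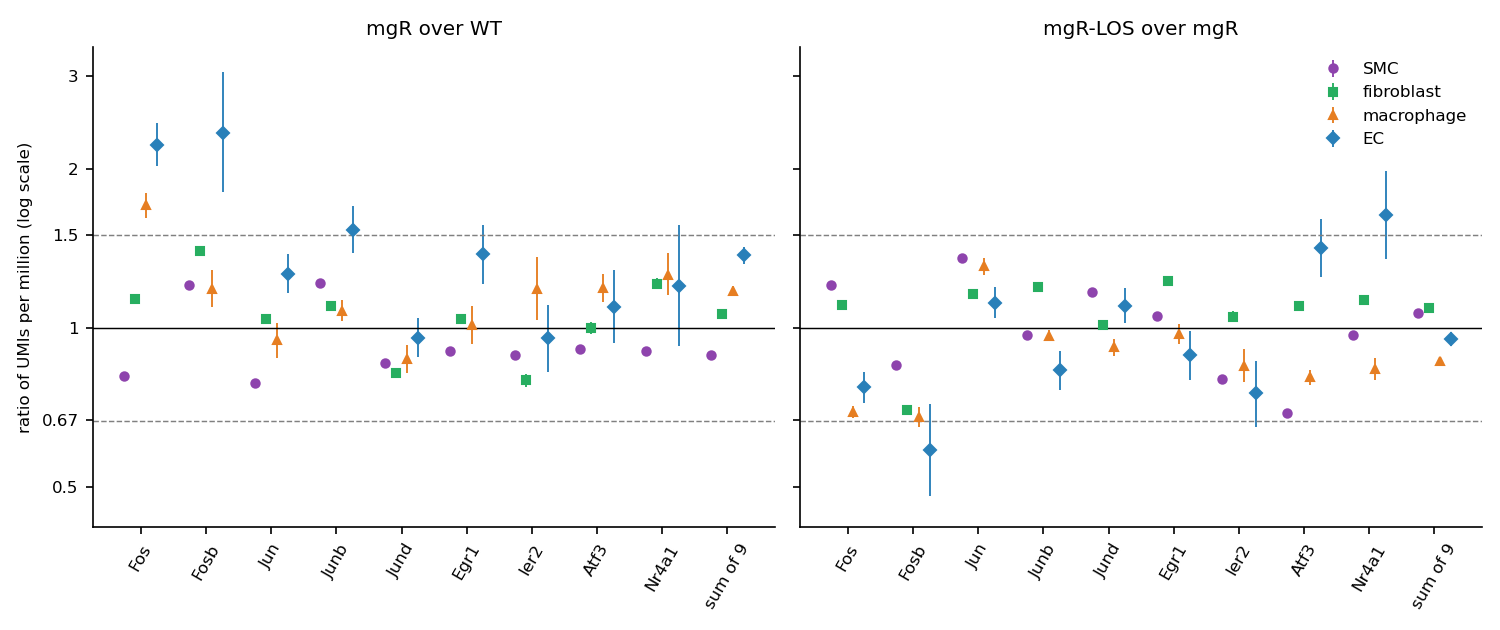
Ratio of CPM (log scale) for each gene and the sum in 4 cell classes, mgR over WT on the left and mgR-LOS over mgR on the right, with bars for exact 95% intervals and dashed lines at 1.5-fold. Points past the lines are *Fos* in macrophages and *Fos*, *Fosb* and *Junb* in ECs on the left, and *Fosb* and *Nr4a1* in ECs on the right.

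Other immediate early genes formed a list of 30 with no member in it. In mgR SMCs 7 of the 26 tested were at least 1.5-fold higher than in WT and 3 lower, against 4.96% and 3.61% of all tested genes. *Egr3*, a zinc finger relative of *Egr1*, was at 43.1 against 10.2 CPM (4.23 times, 3.84 to 4.67), *Nfkbia*, which encodes an inhibitor of NF-κB, at 226 against 58.6 CPM (3.85 times), and *Gadd45b*, a stress response gene, at 302 against 125 CPM (2.41 times). *Btg2*, an antiproliferative gene, was at 1468 against 2435 CPM (0.603 times) and *Ccn1*, a secreted matricellular protein gene, at 511 against 937 CPM (0.546 times). In mgR fibroblasts 9 of 29 were higher, among them *Sik1* (1.93 times), *Sgk1* (1.90 times) and *Csrnp1* (1.80 times), and none lower, against 6.92% and 3.57% of all tested genes. In macrophages 6 of 29 were higher and 2 lower, against 9.88% and 4.33%, and in ECs 9 of 27 were higher and none lower, against 11.8% and 6.82%. The median log2 ratio was 0.27 for the list and -0.14 for the 9 members in SMCs, 0.36 and 0.06 in fibroblasts, 0.24 and 0.25 in macrophages and 0.35 and 0.34 in ECs. The summed level of the list was 0.951 times the WT level in SMCs, so that its sum and its median lay on opposite sides of no change. The difference between the list and the members was not tested.

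In mgR-LOS, 10 of 26 tested genes of the list in SMCs were at least 1.5-fold lower than in mgR and none higher, against 3.59% and 3.71% of all tested genes. In ECs 12 of 27 were lower and 1 higher, against 8.35% and 7.75%. In fibroblasts 3 of 29 were lower and none higher, against 3.45% and 2.91%. In macrophages 2 of 29 were lower and 1 higher, against 2.54% and 4.11%. *Ccn2*, which encodes connective tissue growth factor, was at 2082 CPM in WT, 2167 in mgR and 669 in mgR-LOS SMCs, and the last was 0.309 times the mgR level. In fibroblasts it was at 1276, 1817 and 729 CPM. *Ier3* and *Fosl2* in SMCs were at 0.515 and 0.580 times the mgR level. The median log2 ratio of the list was -0.35 in SMCs and -0.50 in ECs, where the 9 members had -0.04 and -0.17.

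Of 12 heat shock genes, 6 were at least 1.5-fold lower in mgR than in WT in fibroblasts, against 3.57% of all tested genes. In SMCs 3 of 12 were lower, against 3.61%, in macrophages 5, against 4.33%, and in ECs 1, against 6.82%, and none was higher in these 4 classes. Other genes of the list stayed within 1.5-fold, such as the chaperone genes *Hsph1* in SMCs (0.970 times) and *Hspa5* in fibroblasts (1.08 times). *Hspa1a*, the inducible Hsp70 gene, was at 463 CPM in WT, 185 in mgR and 458 in mgR-LOS SMCs, and at 634, 284 and 553 CPM in fibroblasts. Its near-identical copy *Hspa1b* was at 299, 119 and 237 CPM in SMCs, and reads could have been split between the copies in counting. *Dnajb1*, an Hsp40 cochaperone gene, was at 400, 207 and 261 CPM in fibroblasts. Both *Hspa1a* and *Hspa1b* were lower in mgR than in the other libraries in SMCs, fibroblasts, macrophages and ECs.

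Regulators upstream of the 9 genes, a list of 15 with the serum response factor, its ternary complex partners, CREB and mitogen-activated kinases, summed to 460 to 502 CPM in SMCs, 526 to 572 CPM in fibroblasts and 865 to 1095 CPM in ECs. Of 11 tested in SMCs, *Elk3*, which encodes a ternary complex factor, was the 1 gene at least 1.5-fold higher in mgR, at 21.4 against 12.2 CPM. Among all tested genes 4.96% were higher there. None of 11 was past 1.5-fold in fibroblasts in either comparison. Of all tested genes in fibroblasts 6.92% were higher and 3.57% lower in mgR, and 2.91% higher and 3.45% lower in mgR-LOS. In ECs 2 of 11 were higher in mgR, *Elk3* (1.85 times) and *Map2k1* (1.92 times), against 11.8% of all tested genes. In mgR-LOS 1 of 12 was higher, *Mapk8* (1.64 times, 0.975 to 2.76), against 7.75%. These EC genes were named after seeing their values. The kinase gene *Map2k1* in SMCs was at 36.2 CPM in mgR and 27.1 in mgR-LOS. Of 11 other basic leucine zipper genes, *Maf* was at 18.0 CPM in WT, 34.0 in mgR and 48.1 in mgR-LOS SMCs. *Fosl2*, which is on both this list and that of other immediate early genes, was at 94.9 and 155 CPM in WT and mgR fibroblasts, 1.63 times. *Nfe2l2*, the oxidative stress factor Nrf2, was 1.52 times the mgR level in mgR-LOS SMCs and 1.57 times in fibroblasts.

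Single barcodes of a class spanned a wide range, part of which is counting noise. In WT SMCs the sum ran from 1369 CPM at the 5th to 26347 CPM at the 95th percentile, with a median of 11539 CPM. The medians of mgR and mgR-LOS SMCs were 10663 and 11454 CPM. Fibroblasts had a separate low group, and 14.5% of WT, 8.55% of mgR and 9.16% of mgR-LOS barcodes lay under 2000 CPM, with medians of 11228, 12662 and 13470 CPM. A low share was not particular to fibroblasts, since 8.54, 8.87 and 10.2% of SMCs also lay under 2000 CPM. ECs lay mostly at the low end, and 51.8, 32.7 and 50.9% were under 2000 CPM. After thinning to 1000 UMIs, the median SMC had a UMI of 5 of the 9 genes in each library, and 3.12 to 3.89% had none of them.

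**Figure D5:**
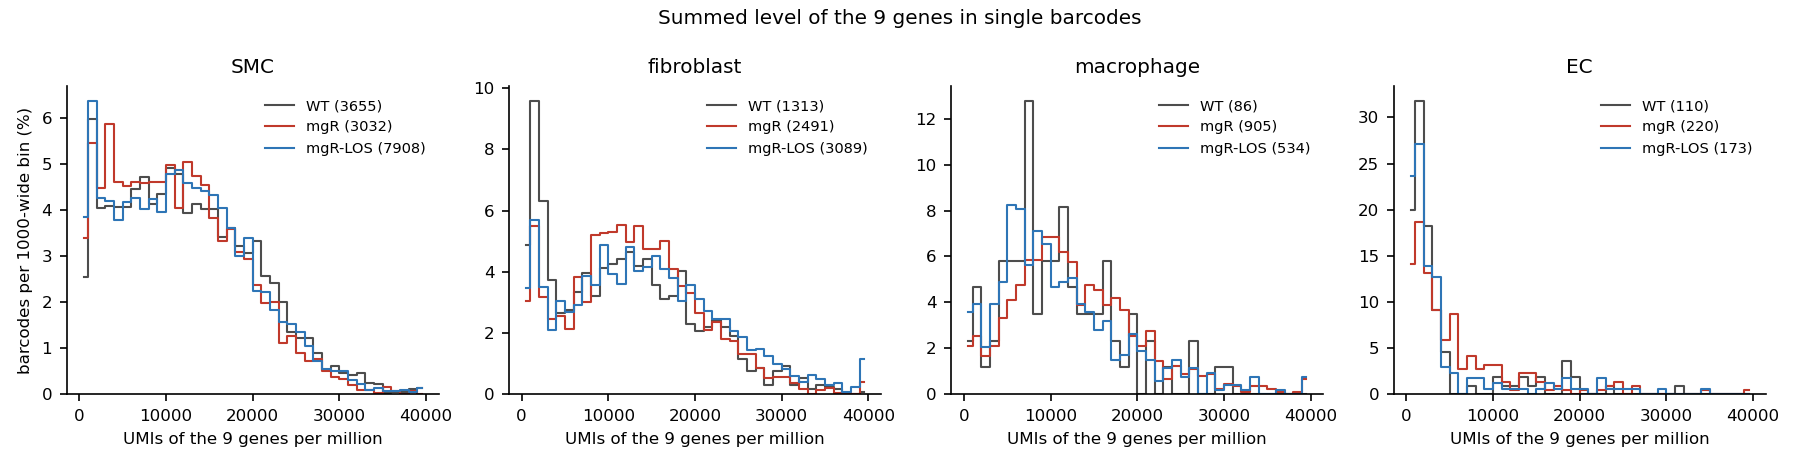
Percent of barcodes of each class in bins of 1000 CPM of the 9-gene sum, with a line for each library, the number of barcodes in the legend and values above 40000 placed in the last bin. SMC medians are 10663 to 11539 CPM, fibroblasts show a low group under 3000 CPM beside a broad one, and EC medians are 1986 to 3387 CPM.

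Members ran together across barcodes, but less so in macrophages, where the median over pairs was 0.32 to 0.34 against 0.50 to 0.59 in SMCs. In SMCs the Pearson correlation of *Fos* and *Egr1* (log2 of UMIs per 10000 plus 1) was the highest of the 36 pairs in each library, at 0.78 in WT, 0.74 in mgR and 0.73 in mgR-LOS, and *Jund* and *Ier2* gave the lowest, 0.31 to 0.41. *Fos* and *Egr1* also led in fibroblasts, at 0.73 to 0.75, whereas in macrophages *Fos* and *Atf3* did, at 0.54 to 0.56. The lowest macrophage pairs were near no correlation, *Fosb* and *Ier2* in WT (0.04) and *Jund* and *Ier2* in mgR (0.08) and mgR-LOS (0.02). The barcodes of a class share a library, and depth enters both values of a pair. Correlation of the sum with log UMI count was -0.10 to 0.22 over the 4 classes and 3 libraries.

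Among 2400 genes at 50 CPM or more in SMCs of all libraries, *Btg2* followed the sum of the 9 genes most closely, at 0.77 to 0.80, before *Zfp36*, which encodes an mRNA decay factor (0.57 to 0.72), *Klf2* and *Klf4*. *Btg2* and *Zfp36* led in fibroblasts too, at 0.68 to 0.73 and 0.68 to 0.72. At the other end in SMCs stood *Myl9*, a myosin light chain gene of the SMC panel, at -0.28 to -0.22, and *Lgals1*, at -0.33 to -0.22. *Klf2*, *Klf4* and *Lgals1* were named after their values had been seen. Barcodes in the top 25% of the sum had a median of 14162 CPM of the other immediate early genes in WT SMCs, against 5096 CPM in the bottom 25%. Heat shock genes were at 9350 against 7179 CPM there and at 11996 against 4780 CPM in WT fibroblasts.

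These barcodes also differed in other measures. Median mitochondrial shares were 5.84% in the top and 6.61% in the bottom 25% of WT SMCs, and 3.26% and 4.33% in WT fibroblasts. With each class cut into 3 equal groups by mitochondrial share, the median sum of WT, mgR and mgR-LOS SMCs was 9173, 8733 and 9155 CPM in the highest group and 14326, 12361 and 13036 CPM in the lowest. In fibroblasts it was 5689, 11030 and 10960 CPM in the highest and 13694, 13049 and 15820 CPM in the lowest group. The highest group was also below the lowest in macrophages and ECs of each library except WT ECs, at 2027 and 1989 CPM. The SMC panel was at 51.4 per 1000 UMIs in the top and 56.1 in the bottom 25% of WT SMCs. Called doublets numbered 50 of 913 in the top and 3 of 913 in the bottom 25% there. Their part in the spread was not tested.

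Across 16 combinations of class and library with at least 50 barcodes, the mean log2 level of the 9 genes followed *Fosb* (r = 0.97) and *Fos* (0.95) most closely among its own members and *Junb* least (0.47). Outside all lists the 5 closest of 2544 genes were *Itgb5*, an integrin subunit gene (0.96), the metallothionein gene *Mt1* (0.94), the receptor kinase gene *Axl* (0.94), *Mt2* (0.93) and *Sdc4*, a cell surface proteoglycan gene (0.92). *Itgb5* was at 295 CPM in WT SMCs, 288 in WT fibroblasts and 12.6 in WT ECs. Not all of the 30 other immediate early genes had the 50 CPM needed in at least 50% of combinations. Of those that did, *Zfp36* (0.84) was closest and *Sik1* (-0.65) lowest. The points share libraries and classes, each member is itself part of the mean, and the coefficients are descriptions.

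Shares of barcodes with a *Fos* UMI, thinned to 1000 UMIs, were 84.7% in WT SMCs (83.5 to 85.8), 82.4% in mgR (81.0 to 83.7) and 84.7% in mgR-LOS (83.9 to 85.5), with 2 to 6 shallower barcodes left out, and without thinning 97.8, 97.5 and 96.0%. In T or NK cells, used as the comparison with little *Fos*, they were 23.8% (8.22 to 47.2), 27.4% (19.5 to 36.4) and 25% (15.02 to 37.4). *Egr1* was found in 63.9, 62.8 and 61.7% of SMCs and in 0, 9.40 and 10.9% of T or NK cells, where 0 of 21 thinned barcodes has an exact upper bound of 16.1% and a floor of 3 counts at 14.3%. Both limits hold for thinned barcodes, since 33.3, 36.8 and 35.4% of T or NK cells had an *Egr1* UMI without thinning. RNA free in the suspension can give UMIs of SMC genes to other barcodes. Its amount was not estimated, and the source of SMC panel UMIs in other classes was not tested. For each 1000 UMIs of the SMC panel, SMCs had 84.0, 71.3 and 87.2 UMIs of *Fos* and T or NK cells 122, 155 and 147. Macrophages had 1915, 2290 and 1430 and fibroblasts 1760, 1359 and 1665, far above the ratio in SMCs. Neutrophils were at 209 in mgR and 185 in mgR-LOS, and the remaining ECs at 204, 580 and 201. *Junb* was at 978 per 1000 panel UMIs in WT T or NK cells against 15.8 in SMCs.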

How the data were processed

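scRNA-seq data of 3 libraries (10x Genomics 3′ chemistry) of the mouse ascending aorta were used. The deposited values are raw UMI counts of each gene in each barcode, which the authors obtained by alignment to GRCm38 (mm10). The file headers give CellRanger 5.0.1 for WT and mgR and 6.0.1 for mgR-LOS, whereas the submitters' processing notes give Cell Ranger 6.0.1 for all. Total UMI counts were 83338726, 123956320 and 121436873. The numbers of pooled mice come from the study's methods, and nothing here separates the animals of a pool.

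Limits on genes and mitochondrial UMIs followed the study's methods. Cell classes were gated on marker UMIs per 1000 UMIs (15 for SMCs, 10 for fibroblasts, 5 for macrophages, capillary and lymphatic ECs, 2 for ECs and T or NK cells), set after the distributions of the panels were seen. Barcodes that passed several gates (72, 408 and 524) or none (68, 512 and 341) entered no class. Doublets were scored against 25% artificial doublets, and called barcodes were marked and kept. With pandas 2.3.3 and numpy 2.4.6, UMIs of each class and library were summed and given as CPM. Sums have exact Poisson intervals, shares Clopper-Pearson intervals and ratios exact conditional binomial intervals (scipy 1.17.1). Ratio intervals and fold calls were checked on simulated Poisson counts, which hold no spread between barcodes, animals or libraries. A gene was called past 1.5-fold if it had at least 20 CPM in either library. No p-value was computed.

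The members, lists and rules were chosen with earlier results of these data known. Named were the members, *Fbn1*, markers, from each list and comparison in SMCs and fibroblasts the 3 largest and 3 smallest ratios, and the 5 genes with the profile most like the members (log2 of CPM plus 1, at least 50 CPM in at least 50% of the combinations). A gene that this rule names is not reported here. Genes listed for single barcodes or ECs outside this rule were named after their values were seen. Alternatives were limits of 5% mitochondrial UMIs and 200 genes, removal of doublets, classes from clusters (scanpy 1.11.5, without the members), another scaling, equal weight of barcodes, other thinning and, added after the data were seen, EC subclass gates of 3 and 10 per 1000. Figures were drawn with matplotlib 3.10.9.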

Additional observations from a re-analysis of the deposited data

Results flagged for a closer look

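*Fos* lay on opposite sides of 1 between classes in the comparison of mgR with WT. It was at 2.22 times the WT level in ECs and 1.71 times in macrophages but at 0.809 times in SMCs. *Nr4a1* in mgR-LOS over mgR was 1.64 times in ECs, 0.971 times in SMCs and 0.836 times in macrophages. These differences between classes were not tested, since there was 1 library per group.

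By summed UMIs of the 9 genes and of *Fos*, capillary ECs and the remaining ECs went opposite ways in both comparisons. In mgR over WT the 9-gene sum was at 1.51 times in the remaining ECs and 0.706 times in capillary ECs, and *Fos* at 3.86 and 0.679 times. In mgR-LOS over mgR the sum was at 0.792 times in the remaining ECs and 1.44 times in capillary ECs, and *Fos* at 0.409 and 1.75 times. The median barcode was lower in mgR-LOS than in mgR in both, at 3374 against 7731 CPM in capillary and 1763 against 2784 CPM in remaining ECs. Single members also went the same way in both. *Fosb* in mgR over WT was at 1.70 times in remaining and 1.71 times in capillary ECs, and *Nr4a1* in mgR-LOS over mgR at 1.38 and 1.95 times. In lymphatic ECs the sum was at 2.05 times in mgR over WT and 1.12 times in mgR-LOS over mgR, and *Fos* at 2.78 and 1.03 times. Both comparisons share the mgR library, capillary ECs held 17 to 36 barcodes, and the differences were not tested.

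Barcodes with over 50% globin UMIs, which entered no comparison, carried the 9 genes at 5124 per 1000000 other UMIs in WT (61 barcodes), 5492 in mgR (64) and 5634 in mgR-LOS (33).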

How the results depend on the processing

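Of the summed 9-gene ratios, all kept their direction under the 6 alternatives except the EC ratio of mgR-LOS over mgR, which was 0.953 and became 1.01 with classes from clusters. With at most 5% mitochondrial UMIs the ratios of mgR over WT were 0.764 in SMCs and 1.02 in fibroblasts, those of mgR-LOS over mgR 1.09 in SMCs, 0.877 in macrophages and 0.916 in ECs, and those of capillary over remaining ECs 4.64 in WT and 5.22 in mgR-LOS. Without called doublets mgR over WT was 0.879 in SMCs, and mgR-LOS over mgR was 1.06 in SMCs, 1.10 in fibroblasts and 0.885 in ECs. With classes from clusters mgR over WT was 0.883 in SMCs, 1.07 in fibroblasts and 1.26 in macrophages, mgR-LOS over mgR 1.08 in fibroblasts and 0.853 in macrophages, and capillary over remaining ECs 4.95 in WT and 3.58 in mgR-LOS. With each barcode weighted equally mgR over WT was 0.914 in SMCs and 1.10 in fibroblasts, mgR-LOS over mgR 1.05 in SMCs and 0.780 in ECs, and capillary over remaining ECs 4.54, 2.71 and 3.07 in WT, mgR and mgR-LOS. Without mitochondrial, ribosomal protein and globin genes in the scaling mgR over WT was 0.867 in SMCs and 1.05 in fibroblasts, and mgR-LOS over mgR 1.09 in SMCs and 0.853 in macrophages. Capillary gates of 10 per 1000, chosen after seeing the data, gave 2.63 in mgR and 5.06 in mgR-LOS. The causes were not tested.

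Shares of SMC barcodes with a *Fos* UMI were 90.4, 90.3 and 90.1% at 2000 UMIs and 97.8, 97.5 and 96.0% without thinning in WT, mgR and mgR-LOS. Those of T or NK cells were 45.5% in mgR and 48.9% in mgR-LOS at 2000 UMIs and 66.7, 65.0 and 56.9% without thinning. Of the 72 ratios of single members, a minimum of 200 genes left all within the counting interval, and equal weight of barcodes moved 38. No paired analysis was possible because each group has 1 library. With 1 library a group, the spread between animals is unknown, and classes of under 40 barcodes rest on few cells.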

Other observations

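Barcodes that the filters removed also carried the members. Barcodes with fewer than 600 genes held the 9 genes at 5478 CPM in WT, 5161 in mgR and 7749 in mgR-LOS (1158, 775 and 649 barcodes). Those with at least 600 genes and over 10% mitochondrial UMIs held them at 10747, 10965 and 13004 CPM, against 12409, 11494 and 12400 CPM in the kept barcodes.

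Barcodes that passed several marker gates, most often those of SMCs and fibroblasts, held the 9 genes at 12467, 11104 and 13523 CPM, and barcodes that passed none at 9548, 9574 and 9414 CPM. Monocytes or dendritic cells were at 7079 CPM in mgR (146 barcodes) and 8151 CPM in mgR-LOS (22 barcodes), below macrophages of the same library in both.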
